A study of Mus musculus with 21 samples.

Results

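The comparison described here set bitransgenic mice in which the NgR transgene had been switched on by removing doxycycline against bitransgenic mice of the same genotype in which it was kept off, in the dentate gyrus of the hippocampus. Its members were chosen by their labels: 3 arrays after doxycycline removal and 3 arrays on the doxycycline diet, together 6 of the 21 arrays of the series, with all 12499 measured genes. Both groups carried the tetracycline-responsive NgR transgene (pTRE/NgR) together with the transactivator tTA. The removed group drank water once doxycycline was withdrawn, and the diet group had the drug in its food throughout. The transgene state and exposure to doxycycline therefore cannot be told apart in this comparison. With 3 arrays a group, precision is limited throughout. The rest of the series served to place the genes. Experiment 2 held 3 bitransgenic arrays from mice never given doxycycline and 3 monotransgenic arrays from mice on water, set 3 held 3 bitransgenic and 3 monotransgenic arrays with no treatment stated, and set 1 had 1 more group, 3 monotransgenic arrays without tTA from mice taken off doxycycline. The labels used here give no age, sex, promoter driving tTA or time since withdrawal, and nothing beyond sample numbers says that the samples were separate animals. The p-values therefore measure the spread between these samples.

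NgR, the Nogo receptor encoded by *Rtn4r*, sits on the neuronal surface, binds the myelin proteins Nogo, MAG and OMgp and, with co-receptors, signals to restrain axon growth and structural plasticity. In a system of this kind tTA drives a transgene under the tetracycline-responsive promoter, and doxycycline blocks tTA. The dentate gyrus is made up mainly of granule cells, excitatory neurons whose mossy fibre axons reach CA3. Activins, dimers of the *Inhba* product, and TGF-beta bind paired receptor kinases that phosphorylate Smad proteins, follistatin (*Fst*) traps activins outside the cell, and feedback inhibitors such as Pmepa1 act on the Smads. In the hippocampus *Inhba* is known as a gene that neuronal activity induces.

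The deposited intensities had a trimmed mean of 150 on every array, and the 6 arrays correlated with one another at 0.980 to 0.988 over genes. Array medians were 5.26, 5.32 and 5.28 on the log2(value + 16) scale after removal and 5.37, 5.37 and 5.31 under the diet. Differences between groups are therefore given from quantile-normalized log2 values and can be smaller than the deposited intensities show for abundant genes. Whether groups overlap is judged on those normalized values, and of the 2028 genes whose groups did not overlap there 1766 did not on the deposited intensities either. Markers of dentate granule cells matched the tissue label: 15 of the 16 listed were measured, and *Calb1* averaged 4839 ± 816 after removal and 4858 ± 957 under the diet, *Dsp* 3872 ± 424 and 3498 ± 182, and *Prox1*, the transcription factor that defines granule cells, 617 ± 41.5 and 715 ± 103 (SD, n = 3 each). The Y-linked gene *Eif2s3y* lay between 395 and 664 on all 6 arrays, and *Xist*, which is expressed from the inactive X, was at most 29.7. The log2 ratio of the 3′ to the 5′ Gapdh control probe sets, a measure of RNA integrity, was 4.29, 4.12 and 4.19 after removal and 3.89, 4.00 and 3.95 under the diet, so the groups did not overlap. It was 4.32, 4.21 and 4.09 in the monotransgenic arrays of set 1. The actin ratio was 4.64, 4.86 and 4.63 after removal and 4.82, 4.91 and 4.79 under the diet. For both controls the 3′ probe sets thus read far above the 5′ ones on all 6 arrays.

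Removal of doxycycline raised 4 genes and lowered none at a Benjamini-Hochberg adjusted p under 0.05 in limma over all 21 arrays, which share one estimate of the spread: the transgene's gene *Rtn4r*, the activin trap gene *Fst*, the TGF-beta feedback gene *Pmepa1* and *Fam107b*. These 4 are 0.032% of the genes tested, and since all were higher the share called higher was also 0.032%. *Rtn4r* read 1469, 329 and 254 after removal, 111, 87.0 and 73.1 under the diet and 63.8, 98.4 and 79.0 in the monotransgenic mice. The groups did not overlap, but the first array after removal lay far above the other two. It rose by 2.30 ± 0.40 log2 units (SE), 4.92-fold (limma adjusted p = 0.0405), and an exact two-sided permutation test over the 20 labelings gave p = 0.1, the smallest they can give. Without that array the difference was 1.55 and the limma adjusted p 0.0539.

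*Fst* read 265, 395 and 335 after removal, 50.4, 71.9 and 37.3 under the diet and 129, 113 and 258 in monotransgenic mice. Every array after removal lay above every diet array, and the monotransgenic arrays lay between the groups. The gene rose by 2.37 ± 0.36 (5.18-fold, limma adjusted p = 0.0199). A second *Fst* probe set read 48.6, 113 and 69.6 after removal and 1.81, 8.3 and 4.02 under the diet, a difference of 2.20. *Pmepa1*, a membrane protein that holds receptor-regulated Smads away from TGF-beta receptors, read 210.0, 160.2 and 137 after removal, 53.3, 55.1 and 74.7 under the diet and 155, 118 and 86.3 in monotransgenic mice. It rose by 1.30 ± 0.20 (limma adjusted p = 0.0199), and its other 2 probe sets, both dim, differed by 0.06 and 0.40. With the mean of the 3 probe sets the difference was 0.59 (limma adjusted p = 0.376). With the Gapdh 3′ to 5′ ratio as a covariate it was 1.07 (limma adjusted p = 0.209), and *Rtn4r* also missed the threshold there while *Fst* and *Fam107b* passed. *Fam107b*, which belongs to the same small family as the actin-binding protein gene *Fam107a*, read 918, 812 and 922 after removal, 361, 356 and 398 under the diet and 369, 345 and 550.3 in monotransgenic mice. It rose by 1.20 ± 0.20 (limma adjusted p = 0.034), and its other 2 probe sets were 0.94 and 0.78 higher. With 1 array left out in turn the count was 0 without the first or second array of either group, 1 without the third diet array and 4 without the third array after removal, 2 of them among the 4 named here. The differences themselves stayed between 2.21 and 2.57 for *Fst*, 1.15 and 1.44 for *Pmepa1* and 1.17 and 1.26 for *Fam107b* in those fits.

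**Figure D1:**
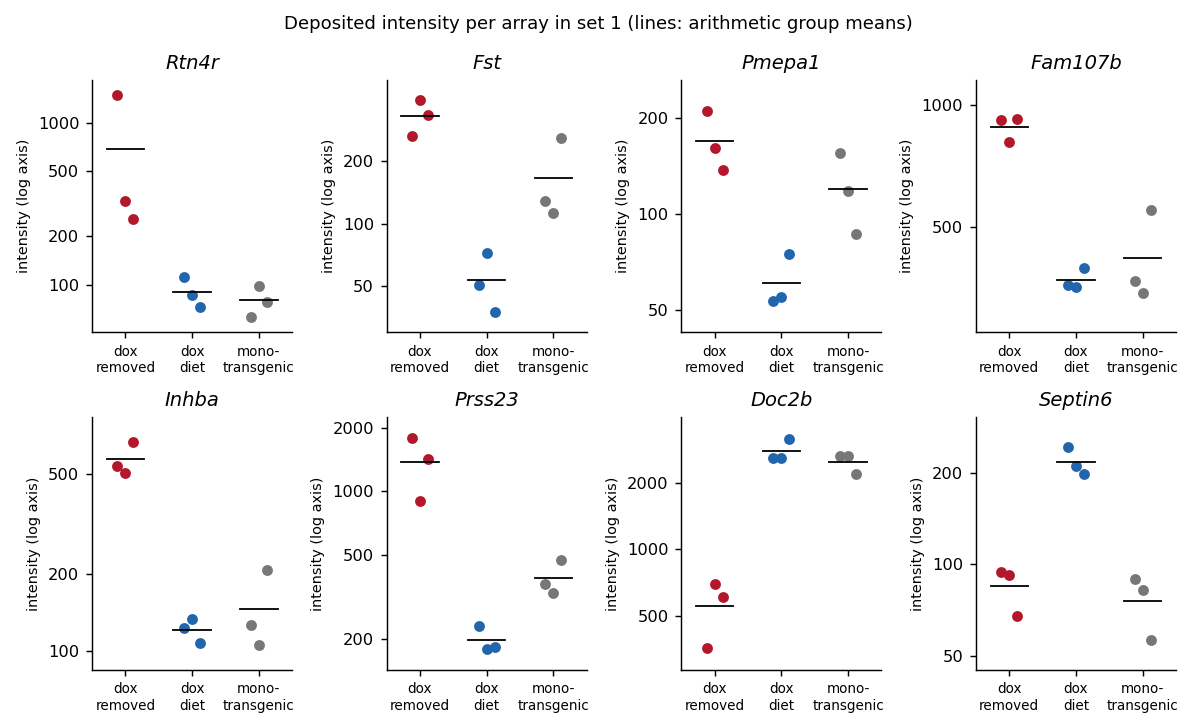
Deposited intensity on each array of set 1 (log axis) for *Rtn4r*, *Fst*, *Pmepa1*, *Fam107b*, *Inhba*, *Prss23*, *Doc2b* and *Septin6*, with red points for doxycycline removed, blue for doxycycline diet, grey for monotransgenic and lines at arithmetic group means. The removed and diet groups overlap for none of the 8 genes, and the monotransgenic arrays lie near the diet level for *Doc2b*, near the removed level for *Septin6* and between the groups for *Fst*.

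The sequence near the start of *Fam107b* is shown because it is the one of the called genes with a promoter in the RefSeq table (GRCm38.p6, 250 bases before to 50 after the start) that held any of 3 motifs searched on both strands. Those were the cAMP response element TGACGTCA, the Smad element GTCTAGAC and the AP-1 site TGACTCA, which binds Fos and Jun dimers. The capitals mark an AP-1 match that begins 36 bases before the start. The whole printed stretch lies at chr2:3713396-3713455 on the plus strand.
Fam107b: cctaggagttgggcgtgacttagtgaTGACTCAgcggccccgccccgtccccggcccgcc
Of 32851 promoters of that length 5.20% held TGACTCA, 1.79% TGACGTCA and 0.213% GTCTAGAC. The windows of *Rtn4r* and *Inhba* held none of the 3. *Fst*, *Pmepa1* and *Klf10* were named for the search and have no entry in the table.

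Within the activin, TGF-beta and BMP genes the 2 that rose over 21 arrays, *Fst* and *Pmepa1*, were joined by 3 more in the fit on the 9 arrays of set 1 alone, *Inhba*, *Ltbp3* and *Skil*, and none of the list fell in either fit. Of 46 measured members 24 were higher and 22 lower, with a median difference of 0.03, against 6008 higher, 6491 lower and a median of −0.01 over all genes. The groups did not overlap for 16 members, 9 higher and 7 lower. Over all genes 16.2% did not overlap, 7.98% higher and 8.25% lower. The fit on set 1 alone, which leaves out set 3 and the more variable arrays of experiment 2, called 0.68% of genes (85). With set 3 added the count was 24. Spread between samples outside set 1, such as that among the monotransgenic arrays of set 3 described below, does not enter its SEs and p-values. Its adjusted p-values are marked here as set 1 alone. For genes called in that fit and not over 21 arrays, the SEs printed are also from it unless stated.

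Among the 8 ligands *Inhba* stood apart. It read 535, 505 and 669.6 after removal, 122, 134 and 107 under the diet and 127, 105 and 208 in monotransgenic mice, 2.08 ± 0.19 log2 units higher (limma adjusted p = 0.000593 on set 1 alone and 0.0713 over 21 arrays). The inhibin alpha gene *Inha*, whose product pairs with *Inhba* to give inhibin, read 25.3, 58.0 and 48.2 after removal and 96.5, 81.0 and 83.4 under the diet (−0.78, limma adjusted p = 0.451). *Gdf10*, a BMP family ligand, read 35.0, 93.7 and 101 after removal and 246, 233 and 154 under the diet (−1.31, limma adjusted p = 0.183). In both genes the groups did not overlap and neither passed in either fit. *Tgfb2* differed by −0.60, again without overlap, and *Inhbb*, *Tgfb3*, *Bmp2* and *Bmp7* were dim and did not pass.

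None of the 12 receptors passed. The type I TGF-beta receptor gene *Tgfbr1* read 413, 549 and 536 after removal and 831, 913 and 898 under the diet (−0.81, limma adjusted p = 0.198), with no overlap. *Acvr1c* had the largest positive difference, 0.86, but its groups overlapped, at 1051, 864 and 625 after removal and 299.8, 357 and 834 under the diet. The main activin receptor genes *Acvr1b* and *Acvr2a* differed by −0.15 and 0.12. Among 10 extracellular inhibitors and binders only *Fst* and *Ltbp3* passed in the fits named. *Ltbp3*, which tethers latent TGF-beta in the matrix, read 206, 291 and 228 after removal, 145, 138 and 146 under the diet and 249, 242 and 286 in monotransgenic mice (0.71 ± 0.13, limma adjusted p = 0.0257 on set 1 alone). The monotransgenic arrays thus lay with the removed group.

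Of 10 Smads and cofactors *Skil*, a Smad co-repressor, read 4279, 3477 and 3596 after removal and 2760.1, 2604 and 2821 under the diet (0.40 ± 0.07, limma adjusted p = 0.0214 on set 1 alone). The inhibitory *Smad7* was 0.49 higher and did not pass, with no overlap on the normalized scale but overlap of the intensities, and *Smad2*, *Smad3* and *Smad4* differed by 0.06, −0.10 and −0.09. Of 6 targets and feedback genes *Pmepa1* rose. *Klf10*, a TGF-beta-induced transcription factor, read 605, 612 and 554 after removal, 259, 346 and 426 under the diet and 179, 289 and 211 in monotransgenic mice (0.78, limma adjusted p = 0.443). *Id2* and *Id3*, targets of BMP signalling, differed by −0.27 and −0.77, and neither passed.

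**Figure D2:**
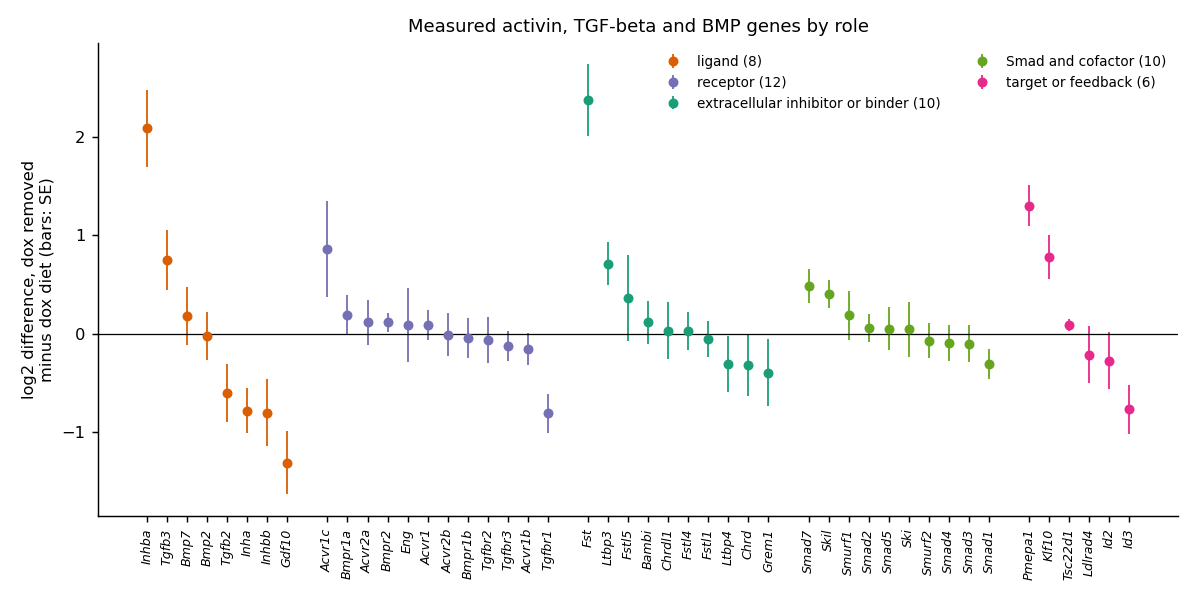
Log2 difference, doxycycline removed minus doxycycline diet, with SE bars from limma over 21 arrays for the 46 measured activin, TGF-beta and BMP genes, grouped by role and sorted within each role. *Inhba*, *Fst* and *Pmepa1* lie highest in the ligand, extracellular inhibitor and target groups, and the median of all 46 is 0.03.

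The fit on set 1 alone called 85 genes, 44 higher (0.352% of genes) and 41 lower (0.328%). In all 85 the removed and diet groups did not overlap, as in 16.2% of all genes. The 4 genes called over 21 arrays were among them. The largest rise was that of *Prss23*, a secreted serine protease, at 1798, 897 and 1419.8 after removal, 231, 179 and 183 under the diet and 363, 329.6 and 471 in monotransgenic mice (2.64 ± 0.21, limma adjusted p = 0.000162 on set 1 alone and 0.183 over 21 arrays). Its 3 probe sets differed by 1.40 to 2.64. *Tbr1*, a T-box transcription factor of excitatory forebrain neurons, read 709.7, 752 and 954 after removal and 259.7, 315 and 262 under the diet (1.47 ± 0.14, limma adjusted p = 0.000672 on set 1 alone). *Mitf*, a transcription factor best known from pigment cells, read 335, 229 and 212 after removal and 89.3, 84.8 and 123 under the diet (1.27 ± 0.21, limma adjusted p = 0.0173 on set 1 alone).

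Genes for synaptic and adhesion proteins were among the 44. *Grin3a*, the NMDA receptor subunit GluN3A, read 292, 161 and 272 after removal, 75.6, 49.6 and 46.7 under the diet and 74.5, 86.7 and 135 in monotransgenic mice (1.83 ± 0.24, limma adjusted p = 0.00375 on set 1 alone), and its 2 probe sets gave 1.78 and 1.83. *Lrrtm1*, a postsynaptic leucine-rich repeat protein that organizes excitatory synapses, read 2516, 3965 and 3631 after removal, 1527, 1403 and 1468 under the diet and 1400.5, 1446 and 1330.2 in monotransgenic mice (1.11 ± 0.14, limma adjusted p = 0.00375 on set 1 alone). All 3 of its probe sets were higher after removal, by 0.75 to 1.51. *Pcdh11x*, an adhesion protocadherin, read 94.8, 135 and 103 after removal and 36.2, 24.5 and 28.4 under the diet (1.55 ± 0.17, limma adjusted p = 0.0021 on set 1 alone). The postsynaptic scaffold gene *Homer2* was 1.16 higher, *Neto1*, an auxiliary subunit of glutamate receptors, 0.56, the cadherin gene *Cdh9* 0.68 and the adhesion protein gene *Flrt2* 0.60, all past the threshold on set 1 alone.

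Cytoskeletal genes past the threshold on set 1 alone included the neurofilament gene *Nefm*, at 2472, 1470.0 and 1797 after removal and 732, 829 and 1129.9 under the diet (1.04 ± 0.18, limma adjusted p = 0.0209). *Cotl1*, which codes for an actin-binding coactosin, was 0.96 higher, *Raph1*, the lamellipodin gene, 0.93, *Fmnl2*, a formin, 0.69, and the tubulin gene *Tubb2b* 0.56. Signalling genes among the 44 included *Pde4b*, a cAMP phosphodiesterase (1.14), and *Crym*, which codes for a thyroid hormone-binding protein (1.07). *Colgalt2*, a collagen galactosyltransferase gene, was dim and read 55.3, 51.7 and 52.6 after removal and 19.6, 1.41 and 5.12 under the diet (1.63 ± 0.24, limma adjusted p = 0.00949 on set 1 alone). *Lhfp* read 390.1, 188 and 326 after removal and 74.0, 53.5 and 144 under the diet (1.64 ± 0.30, limma adjusted p = 0.0257 on set 1 alone). Genes of the 85 were ordered by role after their values were seen, and no list built in that way was tested.

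The largest fall was that of *Doc2b*, a calcium sensor of vesicle release, at 358, 698 and 611 after removal, 2579, 2589 and 3168 under the diet and 2636, 2649.9 and 2194 in monotransgenic mice (−2.35 ± 0.18, limma adjusted p = 0.000162 on set 1 alone and 0.826 over 21 arrays, where the SE was 0.92). Its second, dim probe set was 0.44 lower. *Rflnb*, whose product binds filamin, read 60.7, 104 and 98.2 after removal and 292, 379.9 and 525 under the diet (−1.94 ± 0.21, limma adjusted p = 0.00202 on set 1 alone). *Grik3*, a kainate receptor subunit gene, read 33.9, 90.0 and 76.9 after removal and 263, 228 and 131 under the diet (−1.40 ± 0.27, limma adjusted p = 0.038 on set 1 alone). In these 3 genes every array after removal lay below every diet array. Other genes of vesicle release past the threshold on set 1 alone were *Rph3al* (−1.22), *Unc13b* (−0.89) and *Syt7* (−0.42).

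*Smo*, the transducer of hedgehog signals, read 20.8, 39.3 and 46.1 after removal and 129, 108 and 91.4 under the diet (−1.28 ± 0.20, limma adjusted p = 0.0148 on set 1 alone), and its 2 probe sets were 1.28 and 0.89 lower. *Evc2*, a ciliary protein that acts with Smo, read 16.7, 42.8 and 36.5 after removal and 147, 114 and 117 under the diet (−1.58 ± 0.22, limma adjusted p = 0.00672 on set 1 alone). In neither gene did an array cross over. *Dsg2*, a desmosomal cadherin gene, read 139, 205 and 100.4 after removal and 431, 389.9 and 484 under the diet (−1.47 ± 0.20, limma adjusted p = 0.00547 on set 1 alone). *Ptgr1*, a prostaglandin reductase gene, read 34.9, 57.2 and 40.8 after removal and 146, 136 and 137 under the diet (−1.33 ± 0.16, limma adjusted p = 0.00325 on set 1 alone). Neither of these overlapped between the groups. Receptor genes among the 41 included, beside *Grik3*, *Npy2r* (−0.91), for a neuropeptide Y receptor, *Lifr* (−1.03), for the leukemia inhibitory factor receptor, and the thyroid hormone receptor gene *Thra* (−0.49).

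*Abca8a* (−1.40), *Chst7* (−1.27) and *Popdc3* (−1.25) completed the 10 largest falls on set 1 alone. *Popdc3* read 26.3, 36.2 and 31.7 after removal, 110.4, 72.3 and 123 under the diet and 46.9, 59.5 and 25.4 in monotransgenic mice. *C1ql2*, a secreted synaptic protein of granule cell mossy fibres, read 289.6, 297 and 210.1 after removal, 568, 588 and 784 under the diet and 924, 1105 and 887 in monotransgenic mice (−1.21 ± 0.15, limma adjusted p = 0.00375 on set 1 alone). The diet arrays of *C1ql2* lay between those of the other 2 groups. *Phgdh*, the first enzyme of serine synthesis and an ATF4 target, read 427, 450.1 and 421 after removal and 872, 882 and 732 under the diet (−0.90 ± 0.11, limma adjusted p = 0.00375 on set 1 alone). *Gja1*, the astrocyte gap junction protein connexin 43, read 1659.7, 1725 and 1702 after removal and 2436, 2105 and 2249.8 under the diet (−0.45 ± 0.07, limma adjusted p = 0.0158 on set 1 alone).

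Genes that had the lowest p over 21 arrays without overlap, and neither passed there nor were among those described so far, included *Trib2*, a pseudokinase gene, at 819, 611 and 451 after removal, 205, 258 and 315 under the diet and 268, 202 and 454 in monotransgenic mice (1.20 ± 0.24, limma adjusted p = 0.0886 over 21 arrays). *Gsta4*, a glutathione transferase gene, read 72.1, 171 and 175 after removal, 393, 349.7 and 274 under the diet and 338, 362 and 202 in monotransgenic mice (−1.22 ± 0.25, limma adjusted p = 0.105 over 21 arrays). Neither passed on set 1 alone. Also below the diet group without passing in either fit were the cadherin-related gene *Cdhr1* (−0.97), *Cachd1* (−0.96), the dim *Zfp385a* (−0.87) and the proline transporter gene *Slc6a7* (−0.79), and above it were the chromatin remodeller gene *Chd5* (0.73) and *Gm34996* (0.92). On set 1 alone *B3gat3*, a glycosaminoglycan-linker enzyme gene, rose (0.95), and *Parm1* (−0.67), the orphan receptor gene *Gpr176* (−0.97), the translation factor gene *Eif4e3* (−0.63) and *Rasd2* (−0.99), which codes for a small GTPase, fell.

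**Figure D3:**
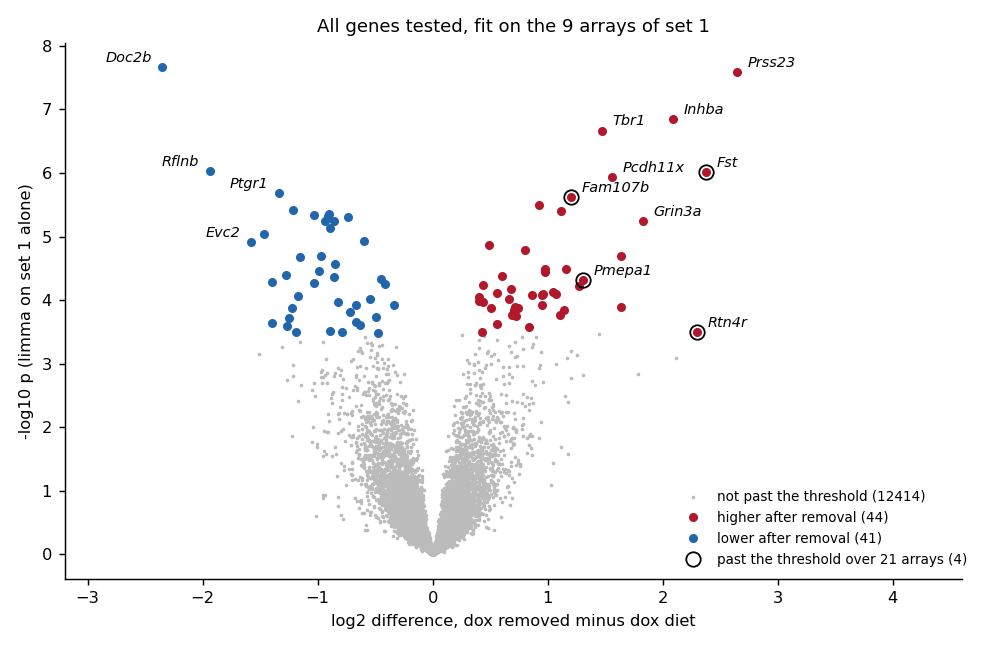
Each of the 12499 genes by its log2 difference, doxycycline removed minus doxycycline diet, and by −log10 p from limma on the 9 arrays of set 1. Red points mark the 44 genes higher after removal and blue points the 41 lower, and rings mark the 4 genes past the threshold over 21 arrays, of which *Rtn4r* has the highest p in this fit.

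The monotransgenic mice of set 1, which were off doxycycline but lacked tTA, lay nearer the diet mean than the removed mean for 71 of the 85 genes (83.5%), against 58.5% of all genes and 69.7% of the genes whose removed and diet groups did not overlap. They lay nearer the removed mean for the other 14. Among those 14 *Septin6*, a septin of the membrane cytoskeleton, read 94.4, 92.4 and 67.6 after removal, 244, 209.9 and 198 under the diet and 89.5, 82.4 and 56.5 in monotransgenic mice. Its difference was −1.16 between removed and diet and 1.35 between diet and monotransgenic. *Ccnd2*, a cyclin of dividing progenitors, read 750.2, 636 and 448 after removal, 1129, 1028 and 1017 under the diet and 607, 675 and 639 in monotransgenic mice, and *Crym* read 879, 649.6 and 895 after removal, 424, 371 and 317 under the diet and 857, 979 and 592 in monotransgenic mice. For these 3 genes the diet group was the one that stood apart. Relative to the monotransgenic mean, *Fst* differed by 1.01 after removal and by −1.36 under the diet, and *Pmepa1* by 0.49 and −0.82. Both of these values use the same monotransgenic arrays. *Inhba* differed by 1.88 and −0.20, *Fam107b* 1.05 and −0.15, and *Doc2b* −2.17 and 0.18.

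Set 3 and experiment 2 share no arrays with this comparison. The bitransgenic minus monotransgenic difference had the sign of the removed minus diet difference for 78 of the 85 genes in set 3 (91.8%, against 53.2% of all genes), for 72 in experiment 2 (84.7%, against 54.7%) and for 66 in both (77.6%, against 28.7%). *Lrrtm1* and *Rtn4r* had differences of similar or larger size there. *Lrrtm1* read 3007, 2356 and 3297 in bitransgenic and 1439, 848 and 1313 in monotransgenic mice of set 3, and 4282, 2869 and 3782 in bitransgenic and 762, 813 and 1469.6 in monotransgenic mice of experiment 2. Its differences were 1.34 in set 3 (limma adjusted p = 0.0828) and 1.70 in experiment 2 (limma adjusted p = 0.00635), where it rose. Those of *Rtn4r* were 2.47 and 1.93. The other genes called over 21 arrays had smaller differences, none past the threshold. That of *Fst* was 0.34 in set 3 and 0.15 in experiment 2, that of *Pmepa1* 0.29 and 0.17, and that of *Fam107b* 0.43 and 0.10. *Inhba* differed by 0.81 in set 3 and 0.15 in experiment 2.

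The difference between the removed minus diet effect and the set 3 effect passed the limma threshold for 0 of 12499 genes (386 at an unadjusted p under 0.05), and that against experiment 2 for 1 gene, *Gtpbp6* (903 at an unadjusted p under 0.05). No gene is therefore called particular to doxycycline removal, since *Gtpbp6* passed against experiment 2 and not against set 3.

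The same-sign counts rest on monotransgenic arrays that were not alike. *Doc2b* read 81.5, 236 and 172 in bitransgenic mice of set 3 and 1914, 68.9 and 1700.1 in monotransgenic mice, so the second monotransgenic array lay at the bitransgenic level. In experiment 2 it read 142, 81.1 and 127 in bitransgenic mice and 136, 158 and 2273 in monotransgenic mice, with only the array of sample 8 high. *Prss23* was high where *Doc2b* was low. It read 2631, 2059 and 1938 in bitransgenic and 372, 2873 and 547 in monotransgenic mice of set 3, and 1790.2, 3355 and 1963 in bitransgenic and 2255, 1661 and 266 in monotransgenic mice of experiment 2. *Tbr1* read 981, 851 and 654 in bitransgenic and 184, 1198 and 282 in monotransgenic mice of set 3, and 933, 1588 and 1171 in bitransgenic and 1132, 633 and 195 in monotransgenic mice of experiment 2. The same 3 monotransgenic arrays stood with the bitransgenic ones in each gene.

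Over all 85 genes, the second monotransgenic array of set 3 lay nearer the removed mean than the diet mean of set 1 for 68 genes, and samples 1 and 2 of experiment 2 for 68 and 64. The other monotransgenic arrays did so for 18 and 21 genes in set 3, 25 in experiment 2 (sample 8) and 15, 9 and 20 in set 1. The 6 bitransgenic arrays of set 3 and experiment 2 did so for 60 to 77. Over all genes the share was 42.7% to 53.7% on these 15 arrays. *Rtn4r* did not split in this way: it read 133, 112 and 85.9 in monotransgenic mice of set 3 and 113, 185 and 123 in those of experiment 2. With each array of set 3 left out in turn, 71 to 79 of the 85 genes had the sign of removed minus diet, and in experiment 2 69 to 74 did except without monotransgenic sample 8, where 53 did (62.4%, against 53.2% of all genes). What separates the monotransgenic arrays was not tested.

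**Figure D4:**
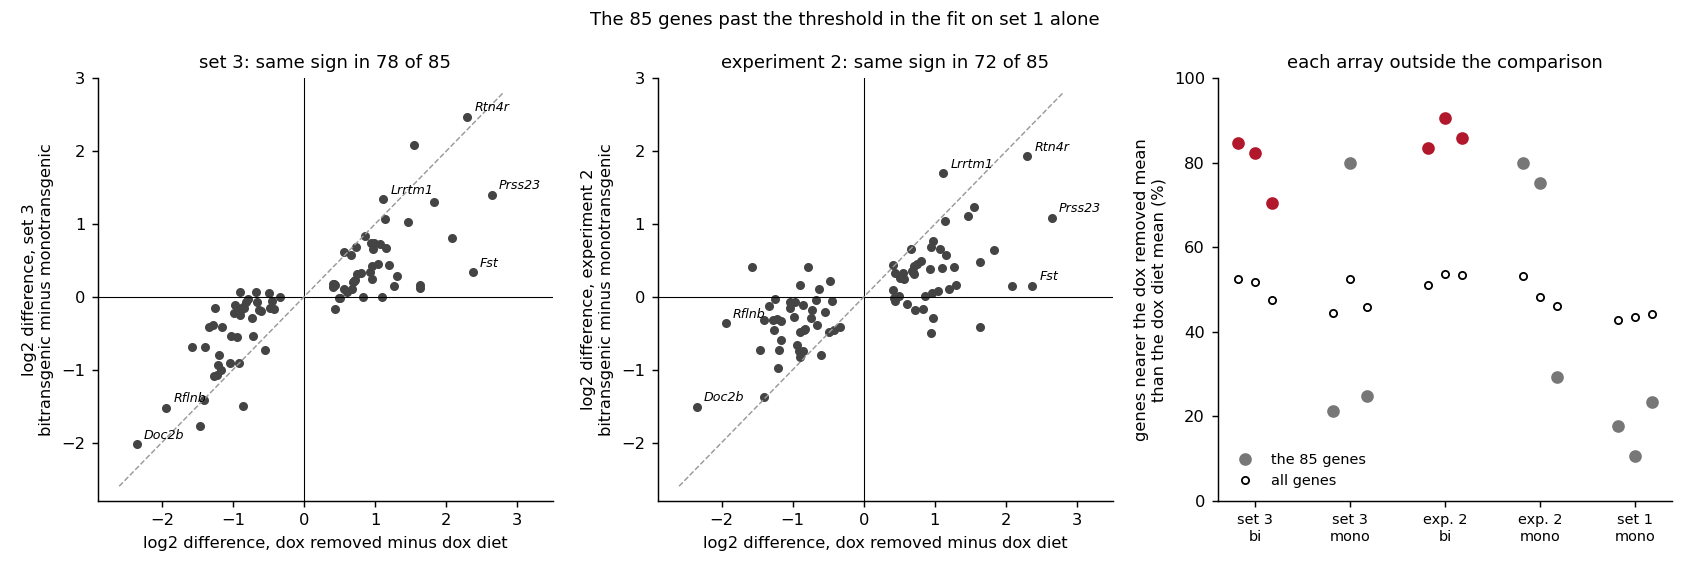
The left and middle panels plot the log2 difference of bitransgenic minus monotransgenic mice in set 3 and in experiment 2 against that of doxycycline removed minus diet for the 85 genes (dashed line: equal differences). The right panel gives, for each array outside the comparison, the percent of genes nearer the removed than the diet mean, filled for the 85 genes and open for all genes, with bitransgenic arrays in red. The second monotransgenic array of set 3 (80.0%) and the first 2 of experiment 2 (80.0% and 75.3%) lie with the bitransgenic arrays.

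None of the other NgR pathway genes passed beside *Rtn4r*. Of 21 measured members 7 were higher and 14 lower with a median of −0.08, and in 5 the groups did not overlap (16.2% over all genes). The related receptor genes *Rtn4rl1* and *Rtn4rl2* differed by −0.36 and 0.05. *Lingo1*, a co-receptor gene, read 266, 139.7 and 175 after removal and 123, 158 and 116 under the diet, so the groups overlapped. Among the ligand genes *Rtn4*, which codes for Nogo, read 7884, 8374 and 8721 after removal and 7345, 7445 and 6886 under the diet (0.06 after normalization), *Omg* differed by −0.17, and the dim *Mag* read 19.0, 1.39 and 14.7 after removal and 27.6, 33.5 and 31.4 under the diet (−0.77). The GTPase gene *Rac1*, the kinase gene *Limk1* and the cofilin gene *Cfl1*, which act on actin, differed by 0.09, −0.08 and 0.01.

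Genes that neuronal activity induces late, 18 of them measured, were higher in 13 and lower in 5 with a median of 0.17, and none passed in either fit. *Nptx2*, a secreted pentraxin that clusters AMPA receptors, read 247, 244 and 165 after removal, 71.0, 59.7 and 119 under the diet and 162, 126 and 365 in monotransgenic mice (1.30, limma adjusted p = 0.159). Its removed and diet groups did not overlap, while the monotransgenic arrays spanned both. *Pdyn*, the prodynorphin gene, read 21.2, 62.5 and 56.0 after removal and 116, 104 and 89.1 under the diet (−0.96, limma adjusted p = 0.698). *Bdnf* read 354, 405 and 343 after removal and 287, 287 and 365 under the diet, with overlap. Of 21 immediate early genes 16 were higher and 5 lower with a median of 0.22, 2 had groups that did not overlap (16.2% over all genes), and none passed in either fit. *Fos*, the AP-1 transcription factor gene, read 679, 847 and 179 after removal, 304, 208 and 125 under the diet and 481, 267 and 492 in monotransgenic mice (1.18, limma adjusted p = 0.866), so the groups overlapped. The transcription factor genes *Npas4*, dim on every array, and *Egr1* differed by 0.86 and 0.39, and *Dusp1*, a phosphatase gene, by 0.68. *Bhlhe40*, a clock and activity gene, was 0.68 higher without overlap (limma adjusted p = 0.183).

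Of 20 glutamate receptor genes 9 were higher and 11 lower with a median of −0.11. On set 1 alone *Grin3a* rose and *Grik3* fell, where 0.352% of all genes rose and 0.328% fell. The AMPA receptor gene *Gria1* read 2624, 2258 and 3108 after removal and 3555, 3376 and 3259 under the diet (−0.44, limma adjusted p = 0.999), with no overlap. In none of 7 GABA-A receptor genes did the groups separate, against 16.2% of all genes without overlap, and the median was −0.08. With 7 genes a count of 0 is near that share. Of 13 synaptic adhesion genes *Lrrtm1* rose on set 1 alone, and the related *Lrrtm2* differed by 0.30. Of 10 septin genes 5 were higher and 5 lower with a median of −0.03. *Septin6* and *Septin9* fell on set 1 alone, where 0.328% of all genes did. *Septin9* read 82.4, 96.8 and 78.8 after removal and 189, 181 and 169 under the diet (−0.89 ± 0.12, limma adjusted p = 0.00457 on set 1 alone).

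Of 16 actin regulators *Fam107b* rose in both fits, and the median over the list was 0.05. The cortactin gene *Cttn* fell on set 1 alone, by a small amount (−0.33 ± 0.06). For the lists of this paragraph the shares over all genes in that fit were 0.352% higher and 0.328% lower. Of 17 axon growth genes *Marcks*, a growth cone protein gene, rose on set 1 alone, at 3415, 3941 and 3787 after removal, 2510.0, 2570.1 and 2564 under the diet and 3158, 3101 and 2965 in monotransgenic mice (0.49 ± 0.07, limma adjusted p = 0.00703). *Gap43*, the classical growth cone gene, was dim on its probe set and differed by −0.20. Of 17 ATF4 and mitochondrial stress genes *Phgdh* fell on set 1 alone. *Sesn2* differed by −0.62 without overlap, and *Asns* and *Psat1* differed by −0.07 and −0.19. None passed in either fit among 30 mitochondrial ribosome genes (median 0.02), 28 oxidative phosphorylation genes (0.03), 12 matrix metalloproteinases and inhibitors (0.01), 12 heat shock genes (0.14), 14 clock genes (−0.15) and 12 glucocorticoid response genes (−0.04).

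Of the markers of cell types that a dentate gyrus dissection can hold, *C1ql2*, *Ccnd2* and *Gja1* passed. They did so on set 1 alone and were lower after removal. Over all genes 0.68% passed in that fit, 0.328% of them lower calls. Fewer cells of a type and less RNA per cell cannot be told apart in these bulk samples. Granule cell markers were higher in 6 and lower in 9 of 15 (median −0.09), their summed intensity was 23330 to 28852 after removal and 26666 to 28072 under the diet, and *C1ql2* was the one that passed. *Stxbp6* differed by −0.39 without overlap and *C1ql3* by −0.41, the intensities of the second overlapping. Of 13 newborn neuron and proliferation genes 8 were higher and 5 lower (median 0.05), and *Ccnd2* fell on set 1 alone. Their summed intensity was 3126 to 3455 after removal, 3589 to 4248 under the diet and 3278 to 3676 in monotransgenic mice of set 1. These sums include *Ccnd2* and follow the brighter members, so they do not show a fall across the list. *Dcx* and *Mki67* differed by 0.13 and 0.18. *Gja1* fell among 15 astrocyte markers on set 1 alone, with sums of 11175 to 13394 after removal and 11113 to 12964 under the diet. No marker passed in either fit among choroid plexus (5 measured), CA1 (7), CA3, CA2 and mossy cell (11), oligodendrocyte (17), microglia (11), endothelial (11), meningeal (6), inhibitory neuron (11) and neocortex, thalamus and striatum (9) markers. *Calb2*, a marker of mossy cells and immature neurons, read 83.2, 53.2 and 55.3 after removal and 18.5, 5.94 and 49.3 under the diet, and *Drd1* 167, 239 and 217 and 71.5, 68.1 and 160.0. Meningeal marker sums were 230 to 314 after removal, 318 to 531 under the diet and 1038 to 1289 in monotransgenic mice of set 1. After removal and under the diet *Ogn* lay between 8.54 and 26.8 and *Lum* between 13.1 and 36.2. The part of these markers in the called genes was not tested.

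Over 21 arrays 632 genes had an unadjusted p under 0.05, against 625 expected by chance, and on set 1 alone 1445 had. With the Gapdh 3′ to 5′ ratio as a covariate in the fit on set 1 alone 0 genes passed in limma (681 at an unadjusted p under 0.05, lowest adjusted p 0.0545). All 85 kept their direction in that fit, 70 had an unadjusted p under 0.05, and their median size was 0.787 log2 units, against 0.937 without the covariate. The ratio did not overlap between the removed and diet groups, so RNA integrity and doxycycline removal cannot be told apart in this comparison. The 85 genes were picked on the same arrays that gave these values, and whether RNA integrity plays a part in the calls was not tested. In set 1 alone, leaving out 1 of the 6 arrays gave 32 to 121 genes, and 31 to 74 of the 85 stayed past the threshold.

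**Figure D5:**
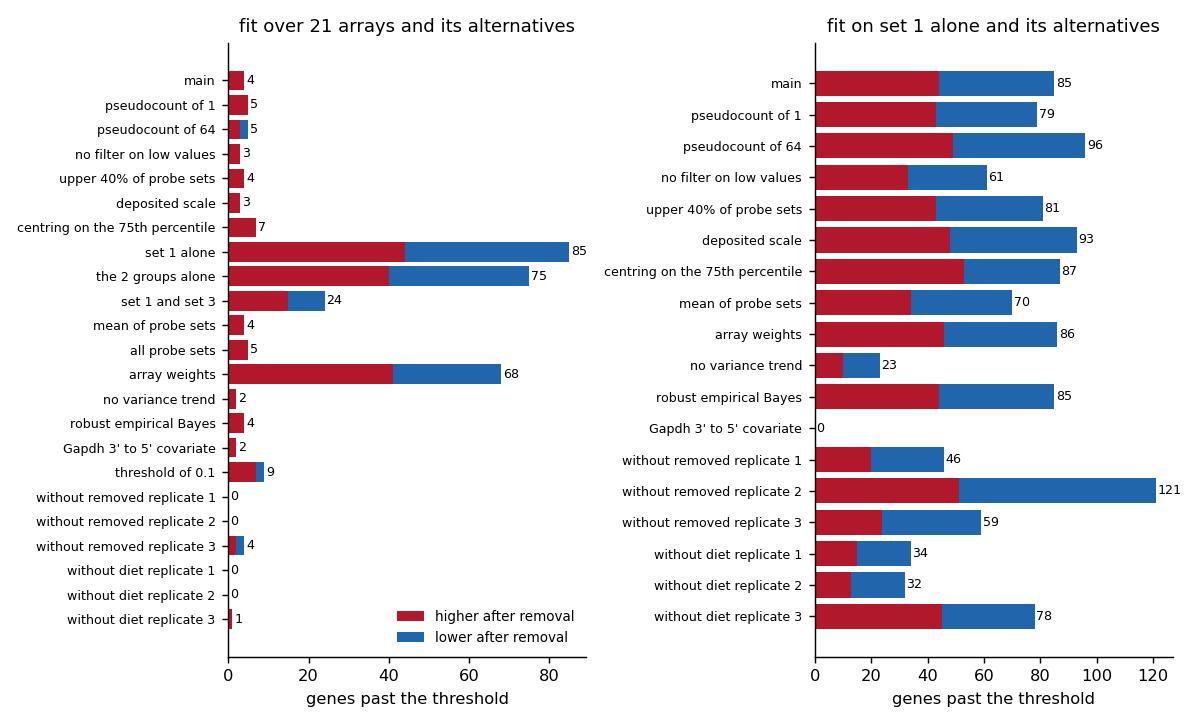
Genes past the threshold in removed against diet, higher in red and lower in blue, for limma over 21 arrays (left) and on set 1 alone (right) under each alternative and with each of the 6 arrays left out. The left counts run from 0 to 85 and the right counts from 0, with the Gapdh covariate, to 121.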

How the data were processed

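Total RNA of the mouse dentate gyrus was measured on Affymetrix mouse arrays of 45101 probe sets. The values used are each probe set's deposited intensity, on a linear scale that the authors had set so that the mean of each array, leaving out 2% of probe sets at each end, was 150. Detection calls were not used, and the tool behind the values was not given in the sources used here. After removal of 64 controls, 34945 probe sets named 1 gene, 932 several genes and 9160 no gene.

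Values were taken as log2(value + 16), and because array medians spread by 0.30 (limit 0.25) they were quantile normalized. A filter kept the 27022 probe sets in the upper 60% by mean, and the brightest probe set stood for its gene, for 12499 genes in all. A model in limma (version 3.58.1, under R 4.3.3 with the package data.table, version 1.17.8) held 1 coefficient for each group of the 21 arrays, 14 residual degrees of freedom, moderated variances with a trend, two-sided tests and Benjamini-Hochberg adjustment over all genes at 0.05. The fit on the 9 arrays of set 1 was the same with 6 residual degrees of freedom. It was set against the 21-array fit because the bitransgenic and monotransgenic arrays of experiment 2 held 29.1% and 24.2% of the residual variance there. Those of set 3 held 7.70% and 11.5%, near the removed and diet groups (10.5% and 8.41%). The fit on set 1 and set 3 together still called 24 genes, fewer than set 1 alone. *Rtn4r* was also tested by exact permutation. The limma script was tested on simulated data.

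The genes named were *Rtn4r*, every gene past the threshold, the 15 higher and 15 lower genes of lowest p whose groups did not overlap, the 10 largest rises and falls on set 1 alone, and, in part, the 4 genes of lowest p per list and the NgR and activin, TGF-beta and BMP members, of which a few are not reported here. Other genes of the 85, the markers printed beside a list and *Gtpbp6* were named after their values were seen. The comparison, the 32 gene lists (443 of 539 symbols tested) and the rules were chosen with earlier results of these data known. Alternatives were centring on the 75th percentile, the deposited scale, pseudocounts of 1 and 64, keeping all probe sets or their upper 40%, fewer groups in the fit, the mean of or all probe sets, no variance trend, array weights, a robust fit, a threshold of 0.1, a Gapdh 3′ to 5′ covariate and the removal of single arrays. Their use in the fit on set 1 alone was decided after seeing the data. Tables were handled and figures drawn with Python 3.11.15, pandas 2.3.3, numpy 2.4.6 and matplotlib 3.10.9.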

Additional observations from a re-analysis of the deposited data

Results flagged for a closer look

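*Gtpbp6*, a GTP-binding protein gene, was the one gene whose difference in this comparison departed from that in experiment 2 in a test of the departure itself. It read 44.5, 41.2 and 32.8 after doxycycline removal and 10.3, 32.3 and 30.7 on the diet, a log2 difference of 0.57. In experiment 2 it read 12.3, 6.15 and 7.42 in bitransgenic and 50.3, 101 and 55.6 in monotransgenic mice, a difference of −1.63. The difference between the 2 was 2.20 ± 0.35 (SE, limma adjusted p = 0.0463). In set 3, where the bitransgenic arrays read 50.8, 53.5 and 38.9 and the monotransgenic arrays 62.0, 35.6 and 46.7, the groups overlapped. The removed values lay close above the diet values, and the low arrays were those of the bitransgenic mice of experiment 2.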

How the results depend on the processing

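The count of 4 genes over 21 arrays became 7 with centring on the 75th percentile, 85 on set 1 alone, 75 with the 2 groups alone, 24 with set 1 and set 3, 68 with array weights, 2 without a variance trend, 2 with the Gapdh 3′ to 5′ covariate and 9 at a threshold of 0.1. Leaving out 1 of the 6 arrays gave 0 to 4, with 450 to 657 genes at an unadjusted limma p under 0.05. The count of 85 on set 1 alone became 23 without a variance trend and 0 in limma with the Gapdh covariate, where 681 genes had an unadjusted p under 0.05, and 32 to 121 with 1 array left out. *Rtn4r* stayed higher but missed the threshold with a pseudocount of 64 (1.91), no filter (2.30), the deposited scale (2.30), the 2 groups alone (2.30), no variance trend (2.30) and the Gapdh covariate (2.19), at limma adjusted p of 0.0571 to 0.275. With 1 array left out its difference was 1.55 to 2.76. Of 133 genes followed through all settings 129 kept one sign. The others turned: *Cemip* to 0.53 with all probe sets, *Rtn4rl2* (0.05) to −0.011 without diet replicate 2, in a range of −0.011 to 0.11 with 1 array left out, *Omg* to 0.20 with the Gapdh covariate, and *Calb1* to 0.0017 with a pseudocount of 64, 0.0019 on the deposited scale and 0.045 with centring. The causes were not tested. Of the genes that each alternative on set 1 alone called, 23 to 121 in number, 81.4% to 95.7% had the sign of set 3. Probe sets near background limit what dim genes such as *Mag*, *Gap43* and *Colgalt2* can show. No paired analysis was possible because the labels give the removed and diet samples no shared numbers.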
